A study of Zea mays with 10 samples.

Results

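The RAMOSA genes ra1, ra2 and ra3 and the corepressor gene rel2 (RAMOSA1 ENHANCER LOCUS2) form the pathway that makes the spikelet pair meristems of maize determinate. They were taken by gene ID from the deposited expression table, as GRMZM2G003927 (ra1), AC233943.1_FG002 (ra2), GRMZM2G014729 (ra3) and GRMZM2G042992 (rel2), 4 of 39636 gene models, and all 4 passed the filter on low counts. RNA was sequenced from dissected ear primordia of 1 mm, with 3 pools from homozygous fea4/fea4 mutants and 3 pools from heterozygous fea4/+ plants of the same segregating families, each pool holding more than 10 ears. FEA4, encoded by FASCIATED EAR4, is a transcription factor of the bZIP family that limits meristem size, and mutant ears are broad and flattened. The heterozygous plants look normal and are called siblings here, but they too carry 1 mutant copy of fea4, so no pool was free of the mutation. The families were grown in the field. Per the labels' protocols the reference allele, fea4-ref, came from EMS mutagenesis of the inbred A619 and was crossed repeatedly into various inbreds. Further fea4 alleles that the protocols name came from a search for enhancers of ramosa2. The labels do not say which allele these pools carried, nor their genotype at ra2.

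In the ear, the inflorescence meristem forms spikelet pair meristems, each of which normally makes a pair of spikelets and stops. When ra1, ra2 or ra3 is lost, these meristems go on to make branches, and the ear becomes branched. RA1 is a zinc finger transcription factor with EAR repression motifs, through which it binds REL2, a corepressor of the TOPLESS type. RA2 is a LOB domain transcription factor and RA3 is a trehalose-6-phosphate phosphatase, and genetic work places both upstream of ra1.

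In the fea4 mutant ears, transcripts of ra3 and ra1 were lower, at 46.3% and 40.4% of the sibling level. The level of ra2 was 53.8% of the sibling level but varied so much between pools that it did not pass the test, and rel2 had 92.6% of the sibling level, with a narrow interval. Of the 4 genes, 2 were lower at an adjusted p under 0.05 (edgeR's quasi-likelihood test, Benjamini-Hochberg adjustment over 20618 genes) and 0 were higher. DESeq2 also called these 2 lower, whereas limma on FPKM called only ra3. None was higher at an unadjusted edgeR p under 0.05, by DESeq2 or by limma. Over all genes tested, 1.08% were lower and 1.4% higher. Since each pool held whole ears, fewer cells that express a gene and less RNA per cell cannot be told apart.

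The effector of the pathway, ra1, had 179, 147 and 247 fragments in sibling replicates 1, 2 and 3 and 128, 21 and 83 in mutant replicates 1, 2 and 3. Scaled to library size, these were 11.0, 8.14 and 11.7 CPM (counts scaled by TMM to a common library size) in siblings and 6.61, 2.58 and 3.04 CPM in mutants. Every mutant pool lay below every sibling pool, as was the case for 10.5% of all genes tested, and mutant replicate 1 lay closest to the siblings. Sibling pools averaged 10.3 CPM ± 1.9 and mutant pools 4.08 CPM ± 2.21 (SD over n = 3 pools), for a log2 fold change of −1.31 ± 0.34 (SE; 95% interval −2.01 to −0.60; edgeR adjusted p = 0.0451). The call is close to the threshold and rested on which pools were used. Without mutant replicate 1 the log2 fold change was −1.85 (edgeR adjusted p = 0.0134). The adjusted p was 0.136, 0.0698 and 0.109 without sibling replicate 1, 2 or 3, and 0.0978 and 0.243 without mutant replicate 2 or 3. In all 6 cases the fold change was negative, at −1.10 or lower. In the authors' deposited table the log2 fold change of ra1 was −1.33 with an adjusted p of 0.0283.

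**Figure D1:**
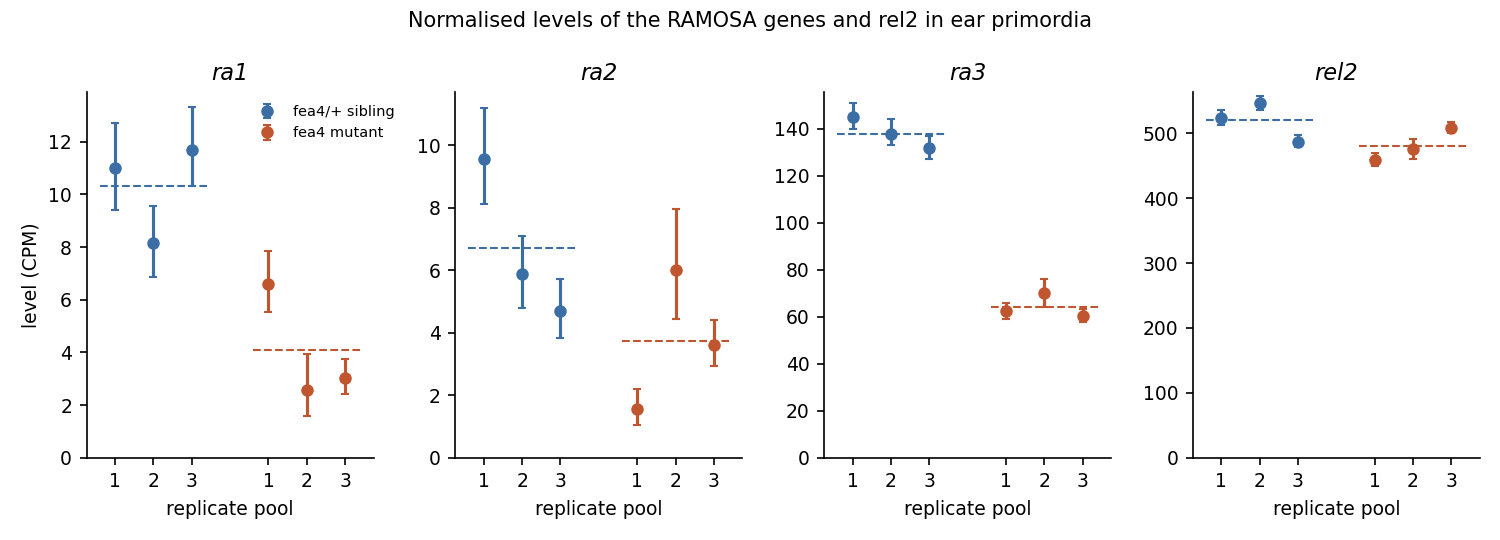
Normalised level (CPM, linear axis from 0) of each gene in the 3 sibling pools (blue) and 3 mutant pools (orange). Bars are 95% counting intervals of each pool and dashed lines are group means; mutant and sibling pools separate for ra1 and ra3 and overlap for ra2 and rel2.

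The LOB domain gene ra2 had 156, 106 and 99 fragments in the 3 sibling pools and 30, 49 and 99 in the 3 mutant pools. The levels were 9.56, 5.87 and 4.71 CPM in siblings and 1.55, 6.02 and 3.62 CPM in mutants. The groups overlapped, because mutant replicate 2 lay above sibling replicates 2 and 3. The group means were 6.71 CPM ± 2.53 and 3.73 CPM ± 2.23 (SD, n = 3 each), and the log2 fold change was −0.90 ± 0.42 (SE; 95% interval −1.78 to −0.01; unadjusted p = 0.0477, edgeR adjusted p = 0.303). At an unadjusted p under 0.05, 7.71% of all genes tested were lower. The interval runs from almost no difference to a mutant level of 29.1% of the sibling level, so these pools leave the size of the difference poorly determined. Without mutant replicate 1 the log2 fold change was −0.51, without sibling replicate 1 it was −0.55, and without mutant replicate 2 it was −1.35 (edgeR adjusted p = 0.708, 0.661 and 0.112). The authors' deposited table gives −0.85 with an adjusted p of 0.628.

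The spread of ra2 was larger than counting alone gives. Its coefficient of variation between pools was 37.8% in siblings and 59.9% in mutants, where counting error alone gives 9.3% and 14.6%. The highest mutant pool had 3.88 times the level of the lowest, and the 95% counting interval of mutant replicate 1 (1.05 to 2.21 CPM) lay apart from that of mutant replicate 2 (4.45 to 7.95 CPM). For ra1 the coefficient of variation was 18.5% in siblings and 54.2% in mutants. The mutant pools ranked in opposite orders for these genes: replicate 1 was the highest for ra1 and the lowest for ra2, and replicate 2 was the lowest for ra1 and the highest for ra2. Mutant replicate 2 was also the shallowest library, where 1 CPM stood for 8.15 fragments. The part of depth in this order was not tested.

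The phosphatase gene ra3 had 2371, 2493 and 2773 fragments in the sibling pools and 1207, 570 and 1654 in the mutant pools. The levels were 145, 138 and 132 CPM in siblings and 62.4, 70.0 and 60.5 CPM in mutants, so the groups were far apart, with little spread within either. The coefficient of variation was 4.87% in siblings and 7.79% in mutants. The group means were 138 CPM ± 6.73 and 64.3 CPM ± 5.01 (SD, n = 3 each), and the log2 fold change was −1.11 ± 0.10 (SE; 95% interval −1.32 to −0.90; edgeR adjusted p = 2.32e-05). By its p-value in the edgeR fit with genotype only, ra3 ranked 1 among the 20618 genes tested, whereas ra1 ranked 476. The first rank of ra3 did not hold under every alternative setting. Leaving out any 1 library gave log2 fold changes of −1.17 to −1.07, with adjusted p of at most 0.000454. The log2 fold change in the authors' deposited table was −1.10, with an adjusted p of 1.79e-15. Maize has a close paralog of ra3. All 24 counts of the 4 genes were whole numbers, where 11.4% to 14.1% of the values in a library held fractions. Whether the counting shared fragments between ra3 and its paralog was not tested, so the level of ra3 is uncertain to that extent. No other gene in the name table had a symbol that starts with trps or trpp. Symbols that start with tps, tpp, sra or tre were not searched, so the enzyme family was not described further.

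The corepressor gene rel2 had 8557, 9882 and 10246 fragments in the sibling pools and 8882, 3873 and 13885 in the mutant pools. The levels were 524, 547 and 487 CPM in siblings and 459, 475 and 508 CPM in mutants, and the groups overlapped. The means were 520 CPM ± 30.2 and 481 CPM ± 25.0 (SD, n = 3 each), and the log2 fold change was −0.11 ± 0.09 (SE; adjusted p = 0.617 by edgeR). Its 95% interval, −0.31 to 0.09, corresponds to a mutant level between 80.7% and 106% of the sibling level, so a fall of the size seen for ra3 lies outside it. The authors' deposited table gives −0.11 with an adjusted p of 0.924. No other gene in the name table had a symbol that starts with rel2, rell1, rell2, tpl or topless, and other symbols of this family were not searched.

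**Figure D2:**
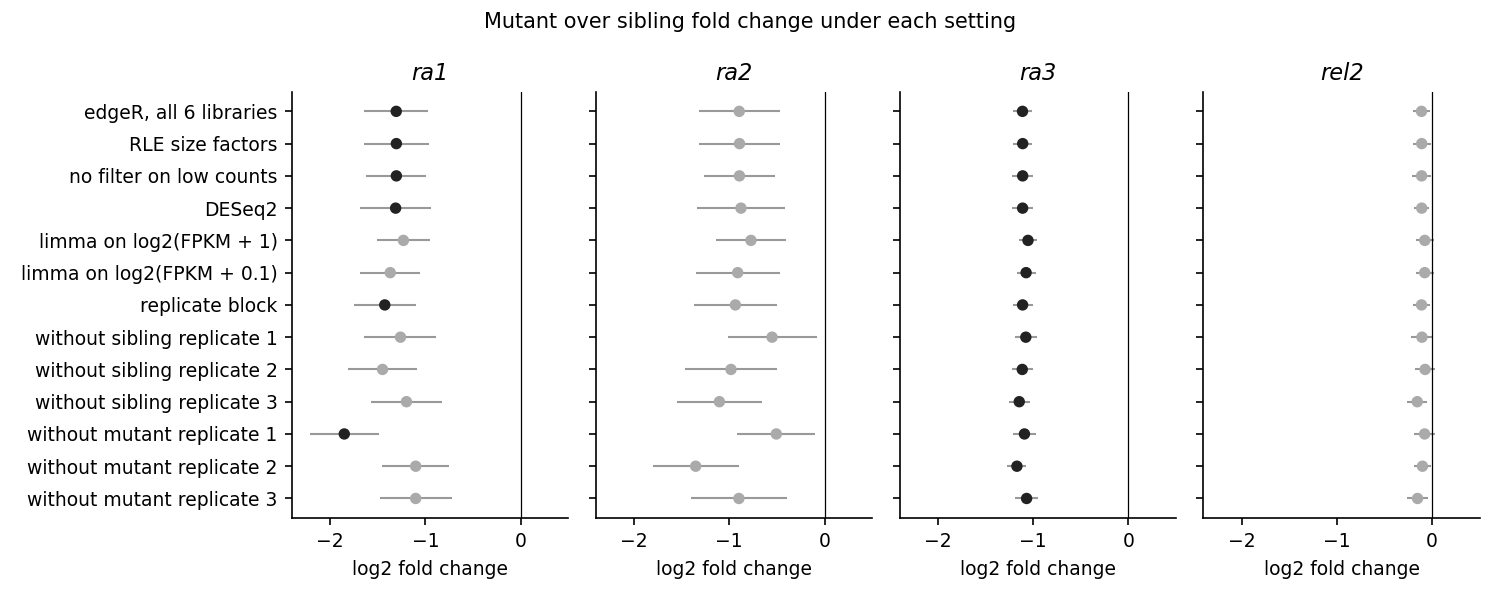
Log2 fold change of each gene, mutant over sibling, under each way of processing the data (rows), with bars of 1 SE; black points have an adjusted p under 0.05 and grey points do not. The points of ra3 are black in all rows and lie between −1.17 and −1.05, those of ra1 change colour with the setting, and those of ra2 and rel2 are grey throughout.

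Levels of different genes were compared on the authors' FPKM values, which are scaled to gene length. In siblings the order was rel2, ra3, ra1 and ra2. The corepressor gene rel2 had 101 FPKM ± 6.01, above the level of 96.7% of the 27482 genes with any fragment, and ra3 had 70.7 FPKM ± 3.94, above 94.6% of them (SD, n = 3 each). The transcription factor genes were lower, with 14.8 FPKM ± 2.69 for ra1 and 9.06 FPKM ± 3.36 for ra2 (SD, n = 3 each). The 3 values of rel2 lay above those of ra3, and those of ra3 above those of ra1. Those of ra1, 11.8 to 16.9 FPKM, and of ra2, 6.37 to 12.8 FPKM, overlapped.

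The order of the mean FPKM levels was the same in mutants, but that of ra1 and ra2 differed between single mutant pools. The levels were 95.5 FPKM ± 5.26 for rel2, 33.5 FPKM ± 1.72 for ra3, 6.10 FPKM ± 3.27 for ra1 and 5.25 FPKM ± 3.16 for ra2 (SD, n = 3 each). The mean FPKM level of rel2 was 1.43 times that of ra3 in siblings and 2.85 times in mutants. The ranges of ra1, 3.88 to 9.86 FPKM, and ra2, 2.17 to 8.49 FPKM, again overlapped. Within each sibling pool, however, ra1 lay above ra2 (15.7 and 12.8, 11.8 and 7.97, 16.9 and 6.37 FPKM in replicates 1, 2 and 3). In mutants ra1 lay above ra2 in replicate 1 (9.86 and 2.17 FPKM). It lay below ra2 in mutant replicates 2 (3.88 and 8.49 FPKM) and 3 (4.56 and 5.11 FPKM). The difference between these neighbours was not tested.

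**Figure D3:**
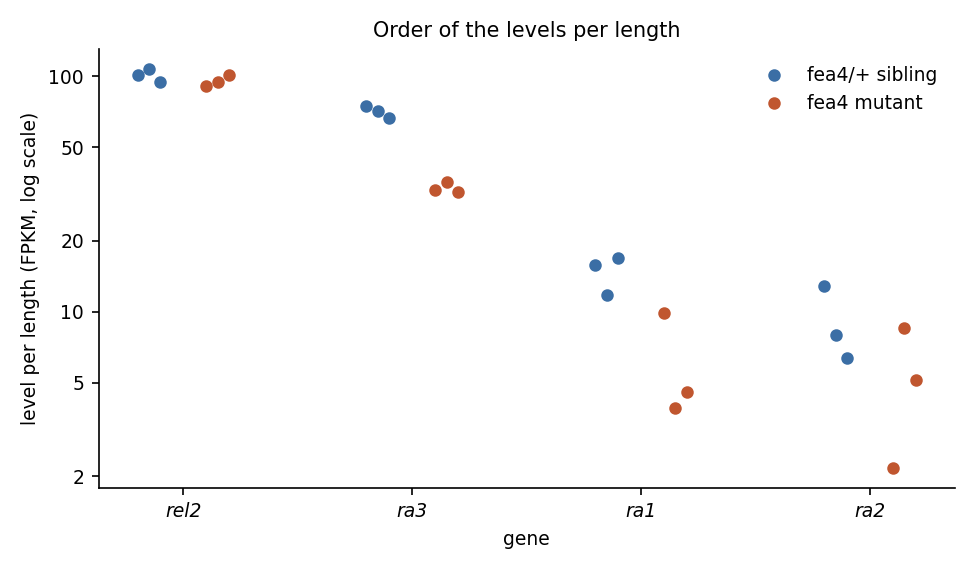
Level per length (FPKM, log axis) of the 4 genes in each of the 3 sibling pools (blue) and 3 mutant pools (orange). The values of rel2, ra3 and ra1 do not overlap within a group, and those of ra1 and ra2 do.

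The balance within the pathway was compared by the log2 ratio of CPM + 0.5 of one gene to another inside each library. Apart from the 0.5 added, library size cancels in the ratio, and gene length cancels in its difference between groups. The log2 ratio of ra3 to rel2 was −1.85, −1.98 and −1.88 in sibling replicates 1, 2 and 3 and −2.87, −2.76 and −3.06 in mutant replicates 1, 2 and 3. These groups did not overlap, and the mean log2 ratio was 0.99 lower in mutants (difference −0.99). The log2 ratio of ra1 to rel2 was −5.52, −5.99 and −5.32 in siblings and −6.01, −7.27 and −7.17 in mutants, a difference of −1.21, with the highest mutant value just under the lowest sibling value. For both pairs the exact permutation test over the 6 libraries gave p = 0.1 (two-sided), the smallest that 3 against 3 can give, and 0.3 after Benjamini-Hochberg adjustment over the 6 pairs compared. This test could not have passed a threshold of 0.05. As rel2 differed little between groups, both differences largely restate the fold changes of ra3 and ra1 and are not separate results. The share of other gene pairs whose ratios separate in this way was not computed.

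The ratios among the RAMOSA genes themselves overlapped between groups. The difference in mean log2 ratio was −0.22 for ra1 to ra3, −0.46 for ra1 to ra2 and 0.24 for ra2 to ra3 (exact permutation p = 0.7, 0.7 and 0.8, adjusted p = 0.8 for each). Each of these changed sign without mutant replicate 2, to 0.08, 0.17 and −0.09. The ratio of ra2 to rel2 differed by −0.76 (exact permutation p = 0.3, adjusted p = 0.6) and its groups overlapped. So the data do not show that ra1, ra2 and ra3 differed from each other in their response, nor that they responded alike.

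**Figure D4:**
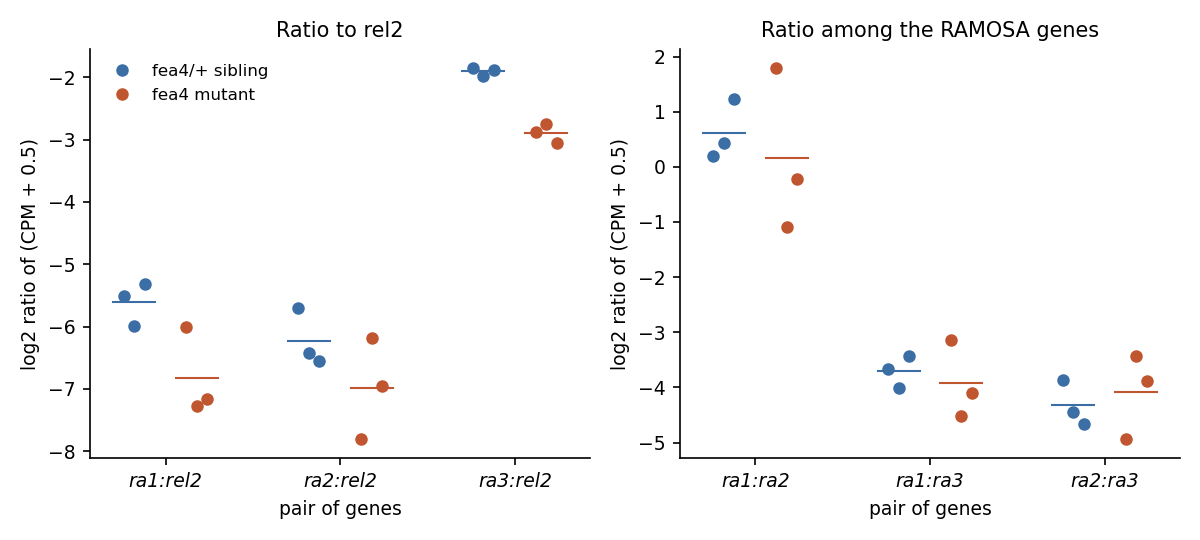
Log2 ratio of CPM + 0.5 between genes of the pathway in each sibling pool (blue) and mutant pool (orange), with lines at the group means; left, RAMOSA genes to rel2, right, RAMOSA genes to each other. The groups separate for ra1 to rel2 and ra3 to rel2 and overlap for the 4 other pairs.

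The 4 genes were then set beside other regulators of branching and determinacy. Of 37 symbols in this list, 27 had a gene ID in the expression table and 26 were tested, since lg1, a liguleless gene, had only 3 fragments over the siblings and 3 over the mutants. Of the 26 tested genes 4 were lower, 0 were higher and 22 did not pass by edgeR, where 2.48% of all genes passed in either direction. At an unadjusted edgeR p under 0.05, 9 were lower, against 7.71% of all genes tested, and 0 were higher. DESeq2 called 3 lower and 0 higher. Without sibling replicate 3, fea3, a receptor-like gene that limits meristem size and was named here after its values were seen, was higher (log2 fold change 0.88, edgeR adjusted p = 0.0474). The list gene td1, also named after its values were seen, had a log2 fold change of −0.61 (edgeR adjusted p = 0.132). It was called lower under 2 of 12 other ways of processing the data. The list's median log2 fold change was −0.25, also with bd1 at its bound, against −0.01 for all genes tested. Without the 4 pathway genes the median was −0.22, with 2 of 22 tested genes lower.

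Those 2 were ba1 and bd1. The bHLH gene ba1 (barren stalk1, needed to start axillary meristems) had 25.9, 26.9 and 29.0 CPM in siblings and 14.4, 14.5 and 13.7 CPM in mutants, a log2 fold change of −0.95 ± 0.17 (SE; adjusted p = 0.00399 by edgeR). As for ra3, its groups lay apart with little spread. The spikelet meristem gene bd1 (branched silkless1) had 55 fragments over the siblings and 0 over the mutants (adjusted p = 0.032 by edgeR). Set against a floor of 3 counts in the mutant group, about the upper 95% limit of a count of 0 for counting error only, its level was 18.1-fold lower. This bound takes the 55 sibling fragments as exact and leaves out the spread between pools, so the true fold could be smaller. An adjusted p for bd1 was not returned by DESeq2, and limma on FPKM did not call it. The call of bd1 was lost without any 1 library other than sibling replicate 3, with an adjusted p of up to 0.201, and its level, about 1.01 CPM in siblings, was low.

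The TCP gene bad1 (branch angle defective1) acts downstream of ra2 in maize tassels. It had 13.4, 8.08 and 11.6 CPM in siblings and 6.51, 7.49 and 5.01 CPM in mutants. All 3 mutant pools lay below the siblings, as was the case for 10.5% of all genes tested. The difference did not pass, with a log2 fold change of −0.81 ± 0.28 (SE, 95% interval −1.39 to −0.24; unadjusted p = 0.00827, edgeR adjusted p = 0.134). The auxin signalling genes bif1 and bif4, which encode Aux/IAA proteins, differed by −0.32 ± 0.15 and 0.47 ± 0.27 on the log2 scale (SE; adjusted p = 0.307 and 0.417 by edgeR). The kinase gene bif2 and the auxin synthesis gene spi1 had −0.56 ± 0.62 and −0.48 ± 0.50, with wide intervals (SE; adjusted p = 0.724 and 0.701 by edgeR). The AP2 gene ids1, which limits the number of florets in a spikelet, had 0.19 ± 0.15 (SE, edgeR adjusted p = 0.609).

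**Figure D5:**
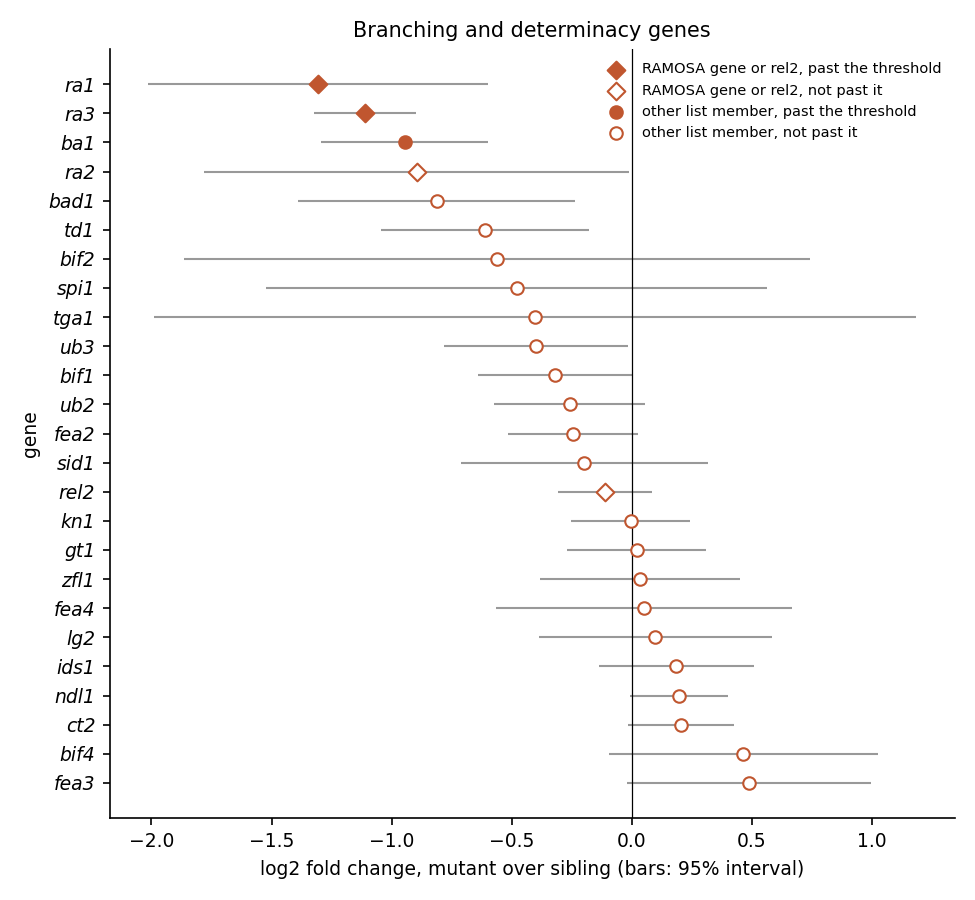
Log2 fold change of the tested branching and determinacy genes, mutant over sibling, with 95% intervals from edgeR's quasi-likelihood fit; filled symbols passed an adjusted p of 0.05, and diamonds are the RAMOSA genes and rel2. The gene bd1 is left out because its mutant libraries were all at 0, and ra1, ra3 and ba1 are the filled points.

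The LOB domain family of ra2 was described from 13 symbols, of which 11 had a gene ID, 4 were at 0 in all 6 libraries and 6 were tested. By edgeR, 0 were higher and 0 lower, where 2.48% of all genes passed in either direction, and the counts by DESeq2 and limma were also 0 and 0; at an unadjusted edgeR p under 0.05 ra2 was lower and 0 were higher. The 5 others had log2 fold changes of −0.28 to 0.90 with adjusted p of at least 0.640. Summed over the 10 members other than ra2 with a gene ID, the level was 8.76 to 14.0 CPM in siblings and 8.86 to 17.7 CPM in mutants.

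For each of the 4 genes, the 3 most similar profiles over the 6 libraries were sought among 1307 genes with a gene name and a mean of at least 10 CPM, by Pearson's r of log2(CPM + 0.5). For ra3 they were gst41, a glutathione S-transferase gene (r = 0.993), D8, which encodes a DELLA repressor of gibberellin response (r = 0.993), and tub6, a tubulin gene (r = 0.992), and 58 of the 1307 genes had an r above 0.9. For ra1 they were rfz1 (0.972), HK1 (0.965) and FHA5 (0.959), with 24 genes above 0.9. For ra2 they were IBP1 (0.976), rnc1 (0.973) and akin1 (0.958), with 11 above 0.9, and for rel2 MZPPT1 (0.965), HAK25 (0.959) and HB131 (0.940), with 12 above 0.9. All points share the same 6 libraries and the difference in genotype, so these values only describe likeness. D8 had 82.6, 78.7 and 72.9 CPM in siblings and 47.5, 51.3 and 49.5 CPM in mutants. Its groups did not overlap, but D8 was picked for its likeness to ra3, so this is not a separate result.

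The pools held 8168955 to 28323324 fragments. The fea4 transcript itself had 6.20 CPM ± 0.582 in sibling pools and 6.39 CPM ± 1.45 in mutant pools (SD, n = 3), and as a chemically induced allele can leave the transcript in place, this does not check the genotype labels. The meristem gene kn1 had 873 CPM ± 72.4 in sibling pools and 871 CPM ± 158 in mutant pools (SD, n = 3), and all 4 primordium markers with a gene ID were present. Of 7 leaf and photosynthesis markers, rca1, lhcb3 and pep1 were at 0 in every pool and ssu1 had 1 fragment in all, while the summed level was 21.4 to 24.0 CPM in siblings and 32.0 to 52.0 CPM in mutants, nearly all of it from me1 and ppdk1. Mean levels in siblings and mutants were 11.1 and 10.4 CPM for me1 (edgeR adjusted p = 0.896) and 11.1 and 30.9 CPM for ppdk1, which was higher (edgeR adjusted p = 0.000893). Of 10 anther and seed markers 7 were at 0 in every pool, and the sum was 5.81 to 8.46 CPM in siblings and 2.21 to 3.03 CPM in mutants, mostly from the seed globulin gene glb1, which was lower (5.93 and 1.90 CPM, edgeR adjusted p = 0.037). By limma on FPKM, glb1 did not pass the threshold. The part of these marker differences in the values of the pathway genes was not tested.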

How the data were processed

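The authors deposited expected counts (raw fragments per gene; 11.4% to 14.1% of the values in a library held fractions) and FPKM values for 6 RNA-seq libraries, with a log2 fold change and a p-value with its adjusted p-value per gene, from DESeq per the file headers. The submitters' processing notes name TopHat2 2.0.9, Cufflinks 2.0.2 and DESeq 1.14.0 without roles; the build behind the expression table is not stated in the sources used here. The kit is stranded, but the use of strand in counting is not stated, so overlapping antisense genes could not be told apart. Groups and replicate numbers came from the sample titles. Nothing in the labels gives a batch per pool, so a batch that follows genotype cannot be told apart from it.

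Expected counts were rounded and fitted over the whole table in R 4.3.3 by the quasi-likelihood test of edgeR 4.0.16 (TMM factors of 0.966 to 1.035, filterByExpr, robust, genotype only, two-sided), which was tested on simulated data. CPM uses the TMM-scaled library sizes, and 95% intervals of single pools are exact Poisson intervals that cover counting error only. Intervals of fold changes come from the quasi-likelihood fit. Alternatives used limma 3.58.1 on log2(FPKM + 1) and log2(FPKM + 0.1), DESeq2 1.42.0, other scaling and filtering, a replicate block, and each library left out. Within-library ratios were tested by exact permutation with SciPy 1.17.1. The pools of each group differed beyond counting noise, with 9.36 to 17.1 for chi-square over its degrees of freedom.

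The pathway genes and lists were chosen with earlier results of these data known. Named genes were the 4 members, list genes past the threshold, the next 6 branching genes in list order, and the 3 most similar profiles of each member. Names came from a RefSeq gene table (assembly Zm-B73-REFERENCE-NAM-5.0), except for ra2, whose ID was not paired with a name there and was taken with the choice of genes. With ra2, 2533 gene IDs had a name. Symbols shared by several genes were settled by letter case. FEA4 peak lists, on build AGPv2, and sequences of the genes were not analysed here.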

Additional observations from a re-analysis of the deposited data

How the results depend on the processing

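The log2 fold changes of ra2, ra3 and rel2 kept their direction and their side of the threshold under all 12 alternatives, at −1.35 to −0.51, −1.17 to −1.05 and −0.16 to −0.07. That of ra1 was negative in all 12 and past the threshold in 5 of them. By limma it was −1.23 (adjusted p = 0.0733) on log2(FPKM + 1) and −1.37 (adjusted p = 0.0826) on log2(FPKM + 0.1), and with 1 library left out it was −1.85 to −1.10. The number of pathway genes past the threshold was then 1 and 1 by limma and 1 to 2 with a library left out, against 2. In the branching list, 2 and 2 were called by limma, 5 without the filter on low counts and 2 to 4 with a library left out, against 4. Without sibling replicate 3 the 4 included fea3, which was higher (0.88, edgeR adjusted p = 0.0474), and not ra1. Leaving out 1 library gave differences in log2 ratio of −1.27 to 0.17 for ra1 to ra2, −0.611 to 0.0757 for ra1 to ra3, −0.0905 to 0.661 for ra2 to ra3, −1.61 to −0.98 for ra1 to rel2, −1.15 to −0.34 for ra2 to rel2 and −1.06 to −0.91 for ra3 to rel2; the cause of these changes was not tested.

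Libraries with the same replicate number did not visibly deviate together (correlations of 0.006, −0.011 and −0.026). With 3 pools per group this cannot settle whether the numbers pair the pools, and the labels do not say. With the replicate number as a block, ra1 had −1.43 (edgeR adjusted p = 0.0136), ra3 −1.11, ra2 −0.94 and rel2 −0.11, and the counts past the threshold were 2 in the pathway and 4 in the branching list. The lowest counts of ra1 and ra2 in a pool were 21 and 30 fragments; in mutants counting error gives coefficients of variation of 15.0% and 14.6%, against 54.2% and 59.9% between pools.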
